A study of Rattus norvegicus with 24 samples.

Results

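The genes described here encode the rat MHC class I molecules and the machinery that loads them with peptide. They were all gene IDs of the deposited expression table whose name starts with RT1- but not with RT1-B, RT1-D or RT1-H, together with B2m, Tap1, Tap2, Tapbp, Psmb8, Psmb9, Psmb10 and Nlrc5. This gave 29 gene IDs of 32489, of which 21 were RT1 genes and 8 were other genes, and no name was carried by more than 1 ID. Messenger RNA was sequenced from lungs of male Wistar rats, aged 5 to 6 weeks and weighing 170 to 190 g, that had received silica particles or normal saline into the trachea. Each of 4 groups held 6 libraries: saline at day 14, silica at 200 mg/mL at day 14, saline at day 28 and silica at 200 mg/mL at day 28. Silica is a mineral dust that inflames and scars the lung, and the title gives the progression of that fibrosis as the subject. Libraries were labelled as biological replicates and are taken here as 1 animal each. No group carried a transgene or deletion by its labels. Wistar is an outbred stock, and the labels give no RT1 haplotype for any animal.

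MHC class I molecules display short peptides from inside the cell to CD8 T cells and to receptors of natural killer cells. A heavy chain, encoded in rat by the RT1 genes, pairs with beta-2-microglobulin, the product of B2m. Peptides are cut by the proteasome, carried into the endoplasmic reticulum by the transporter made of Tap1 and Tap2, and fitted into the heavy chain with the help of tapasin, the product of Tapbp. Interferon gamma exchanges the catalytic subunits of the proteasome for Psmb8, Psmb9 and Psmb10, which form the immunoproteasome. Nlrc5 is a transcriptional activator of class I genes. RT1-A genes are the classical, widely expressed heavy chains of the rat. The RT1-CE, RT1-M, RT1-N, RT1-S and RT1-T24 genes belong to the class Ib series. The number and sequence of RT1 class I genes differ between rat haplotypes, and reads of near-identical RT1 genes can be split between them, so that the level of any single RT1 gene is uncertain.

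Depth recovered from the FPKM values ran from 55.06 to 84.6 M reads per library. Mitochondrial genes took 2.15% to 3.92% of the reads in the day 14 saline libraries, 2.0% to 2.62% in the day 14 silica libraries, 2.13% to 4.1% in the day 28 silica libraries and 2.77% to 8.93% in the day 28 saline libraries. Saline day 28 replicates 1, 2 and 6 had the 3 highest values of all 24 libraries, and calls that use this group are also given without these 3. Lung identity was checked on 5 markers of alveolar type 2 cells, surfactant genes among them, whose summed level lay between 13800 and 28800 FPKM. In whole lung, fewer cells of a type and less RNA per cell cannot be told apart.

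FPKM, the fragments counted for a gene per length and per depth, lets genes be set side by side. B2m was the most abundant of the 29, with a mean of 3034 FPKM over the 24 libraries and a range of 2156 to 4258. The RT1 genes summed to 1610 FPKM ± 225 (SD, n = 24), so that the B2m level was 1.89 ± 0.238 (SD, n = 24) times the summed level of these heavy chains. Reads of class I genes outside these gene IDs are not in the sum, and how shared reads were counted is not given, so the ratio is uncertain too. Among the heavy chains the classical gene RT1-A1 was highest, with a mean of 328.5 FPKM and a range of 185 to 540. Next came RT1-S3 (mean 248.1 FPKM), which RefSeq also lists under the mouse name H2-T23. The H2-T23 product is known in mouse for presenting leader peptides of other class I molecules to natural killer cell receptors. RT1-CE4 had a mean of 216.3 FPKM, RT1-T24-4 of 192.1 FPKM and RT1-CE7 of 174.4 FPKM. These 5 genes made up 72.2% ± 3.5 (SD, n = 24) of the summed RT1 level.

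A middle tier of heavy chains held RT1-CE10 (mean 92.58 FPKM), the other classical gene RT1-A2 (73.99), RT1-T24-3 (68.46), RT1-N3 (60.23), RT1-T24-1 (38.78), RT1-CE5 (31.25), RT1-N2 (20.14), RT1-M3-1 (19.25), RT1-M6-1 (12.31) and RT1-CE1 (11.96), all as mean FPKM. RT1-M3-1 carries the RefSeq synonym H2-M3, whose mouse product is known for presenting formylated bacterial peptides. Below a mean of 10 FPKM stood RT1-S2, RT1-CE3, RT1-M6-2 and RT1-M2. RT1-M4 and RT1-M5 did not pass the filter on low values (at least 0.5 FPKM in 6 or more libraries), with highest values of 0.206 and 0.489 FPKM, and were left out of the tests. The other 27 passed, 19 RT1 genes and all 8 others.

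The peptide supply genes were present at moderate levels. Tap1 had a mean of 78.28 FPKM and Tap2 of 24.49 FPKM, and the ratio of Tap1 to Tap2 was 3.29 ± 0.579 (SD, n = 24). Rat Tap2 is known for allelic forms that differ in the peptides they carry. Tapbp had a mean of 69.49 FPKM. Of the inducible proteasome subunits, Psmb9 had a mean of 74.58 FPKM, Psmb10 of 50.39 FPKM and Psmb8 of 41.02 FPKM. Psmb9 stood at 1.08 ± 0.18 (SD, n = 24) times the level of Psmb6, the constitutive subunit it replaces, Psmb10 at 0.817 ± 0.111 times Psmb7 and Psmb8 at 0.578 ± 0.209 times Psmb5. Nlrc5 was the lowest of the 8, with a mean of 9.61 FPKM and a range of 7.23 to 14.6.

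**Figure D1:**
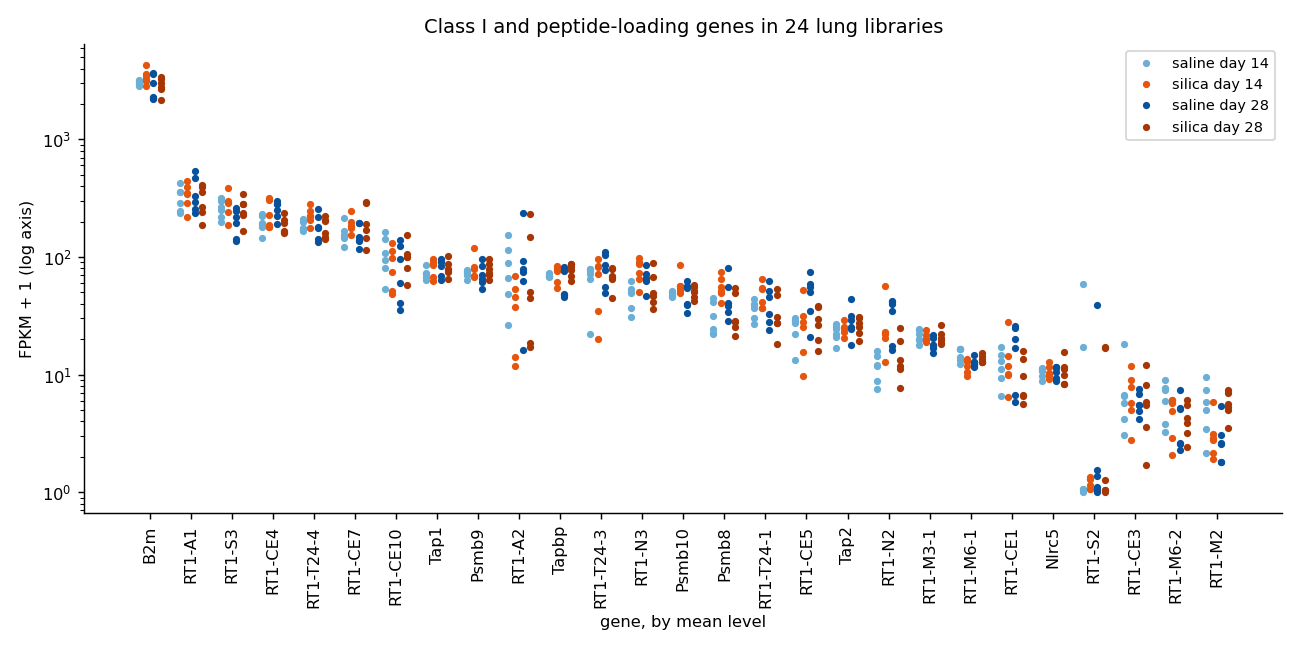
Level of each of the 27 class I and loading genes that passed the filter, as FPKM + 1 on a log axis, with 1 point per library and colours for the 4 groups. B2m lies at 2156 FPKM or more in all 24 libraries, the points of RT1-A2, RT1-CE3 and RT1-S2 are spread widely, and those of Tap1, RT1-M3-1 and RT1-M6-1 are close together.

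Promoter sequences are shown for the genes whose levels are set against each other below: the classical pair RT1-A1 and RT1-A2, the RT1-CE genes that carry the same kappa-B type motif, the pair RT1-S2 and RT1-S3, and B2m. They come from RefSeq, build GRCr8, which is the BN/NHsdMcwi rat and not the Wistar stock. Each run reads 5′ to 3′ on the gene's strand and ends before the first base of the RefSeq gene record. The start that the promoter table counts from can lie further inside that record, so a run can end short of it. Of the 29 genes, 25 had a promoter entry; RT1-CE7, RT1-M2, RT1-M4 and Nlrc5 had none. Capitals mark what was matched: a kappa-B type element, known from class I promoters, in the RT1-A and RT1-CE genes, and the core pattern of an interferon-stimulated response element, on either strand, in RT1-S2, RT1-S3 and B2m. RT1-A1 is at chr20:4906959-4907138 on the plus strand, RT1-A2 at chr20:4872621-4872719 on the plus strand, RT1-CE4 at chr20:3509237-3509406 on the minus strand, RT1-CE10 at chr20:3385053-3385229 on the minus strand, RT1-S2 at chr20:2654804-2655053 on the plus strand, RT1-S3 at chr20:2675278-2675462 on the plus strand and B2m at chr3:129549080-129549235 on the plus strand.
RT1-A1: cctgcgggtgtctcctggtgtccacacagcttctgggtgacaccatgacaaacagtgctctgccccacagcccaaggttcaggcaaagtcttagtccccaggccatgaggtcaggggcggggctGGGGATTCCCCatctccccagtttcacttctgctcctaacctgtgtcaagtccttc
RT1-A2: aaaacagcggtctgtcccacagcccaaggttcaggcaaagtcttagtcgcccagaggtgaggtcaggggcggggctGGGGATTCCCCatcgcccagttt
RT1-CE4: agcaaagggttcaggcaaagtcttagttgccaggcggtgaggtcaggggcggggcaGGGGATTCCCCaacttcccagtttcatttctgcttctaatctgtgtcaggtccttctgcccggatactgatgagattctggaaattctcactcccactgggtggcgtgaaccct
RT1-CE10: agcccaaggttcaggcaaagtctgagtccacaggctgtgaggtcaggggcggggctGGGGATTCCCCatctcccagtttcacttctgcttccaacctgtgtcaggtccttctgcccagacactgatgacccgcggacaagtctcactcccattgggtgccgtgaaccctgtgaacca
RT1-S2: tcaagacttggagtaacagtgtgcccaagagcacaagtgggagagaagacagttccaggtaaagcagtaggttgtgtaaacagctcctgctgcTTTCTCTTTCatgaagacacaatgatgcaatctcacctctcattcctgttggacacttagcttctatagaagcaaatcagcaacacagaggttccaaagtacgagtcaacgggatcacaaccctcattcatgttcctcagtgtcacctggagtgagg
RT1-S3: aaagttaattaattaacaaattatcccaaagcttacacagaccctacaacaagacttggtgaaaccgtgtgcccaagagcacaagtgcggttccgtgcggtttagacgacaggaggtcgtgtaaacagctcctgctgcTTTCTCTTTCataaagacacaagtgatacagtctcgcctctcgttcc
B2m: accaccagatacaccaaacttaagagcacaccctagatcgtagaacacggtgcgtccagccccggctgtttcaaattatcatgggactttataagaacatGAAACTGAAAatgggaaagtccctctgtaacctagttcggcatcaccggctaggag

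Both motifs were searched on both strands in the 250 bases before the start that the table gives for each of 33469 RefSeq promoters. The kappa-B type element, with exactly the capital letters shown for RT1-A1, was found in 4 of the 25 class I and loading promoters, those of RT1-A1, RT1-A2, RT1-CE4 and RT1-CE10, and in 0.0598% of all promoters. The 61 bases that end with this motif were 88.5% to 93.4% identical between any pair of the 4 genes, compared without gaps. The response element pattern, which is the capitals shown for RT1-S2 with any base at the 2 middle positions, was found in 8 of the 25, those of B2m, Psmb10, RT1-N3, RT1-S2, RT1-S3, Tap1, Tap2 and Tapbp, and in 3.41% of all promoters. No promoter of the 25 matched both patterns. Other forms of either element were not searched, so a promoter without a match can still hold one. RT1-S2 and RT1-S3 carry the same 10 bases at their match, and the 60 bases that end with it were 66.7% identical. A match is a match of letters in this build and was not read as a bound site.

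At day 14 the silica lungs had more Psmb8 than the saline lungs, and no heavy chain, transporter or tapasin gene passed the test. Psmb8, the inducible chymotrypsin-like subunit, was at 21.0, 26.9 and 43.7 FPKM (lowest, median, highest) in saline and at 39.4, 52.7 and 73.5 FPKM in silica. The groups overlapped, since the lowest silica library lay below the 2 highest saline libraries. The log2 change came to 0.88 with SE 0.256 (adjusted p = 0.0495 by limma with Benjamini-Hochberg adjustment over 20856 genes). Psmb8 was the only gene called among the 27 tested, or 3.7%, against 4.37% of all genes tested, so the share was near the background. None of the 27 had groups that did not overlap, beside 5.0% of all genes. Psmb8 lay close to the threshold of 0.05 and kept the call in 14 of 33 alternatives, all with that threshold. It lost it in the fits without any 1 of 16 libraries, which were saline day 14 replicates 1 to 4, silica day 14 replicates 1, 2, 3, 4 and 6, saline day 28 replicates 1, 2, 4 and 5 and silica day 28 replicates 2, 3 and 4. The alternatives gave log2 changes of 0.80 to 1.00 and adjusted p of 0.0273 to 0.124.

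Neither of the other inducible subunits was called. Psmb9 was at 62.6, 72.3 and 75.9 FPKM in saline at day 14 and at 66.3, 72.6 and 118 FPKM in silica, with log2 change 0.13 and SE 0.139 (adjusted p = 0.638). The log2 change of Psmb10 was 0.26 (SE 0.138, adjusted p = 0.304). Relative to Psmb5, which it replaces, Psmb8 stood at 0.329 to 0.693 in saline at day 14 and at 0.552 to 0.856 in silica. B2m had log2 change 0.16 and SE 0.151 (adjusted p = 0.591) and Nlrc5 of 0.02 (SE 0.129, adjusted p = 0.959).

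Several class Ib genes were close to the threshold at day 14 without passing it. RT1-N3 was at 29.7, 48.6 and 61.2 FPKM in saline and at 49.5, 78.7 and 96.1 FPKM in silica, with log2 change 0.71 and SE 0.209 (adjusted p = 0.0524). RT1-N2 had a median of 10.8 FPKM in saline and of 21.3 in silica, with log2 change 1.05 and SE 0.326 (adjusted p = 0.0667). RT1-M6-1 was at 11.4 to 15.6 FPKM in saline and at 8.73 to 12.6 in silica, with log2 change -0.32 and SE 0.0946 (adjusted p = 0.0564). In each of these 3 genes the groups overlapped. Over the 27 genes the median log2 change was 0.085, with 18 above 0, beside a median of -0.0023 over all genes tested.

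At day 28 the silica lungs had less RT1-N2 and more RT1-M2 than the saline lungs. RT1-N2 was at 15.3, 36.4 and 41.5 FPKM in saline and at 6.62, 11.5 and 23.8 FPKM in silica. In 4 of the 6 saline libraries it was above every silica library, and the other 2 lay within the silica range. The log2 change came to -1.13 with SE 0.326 (adjusted p = 0.0263 by limma). RT1-M2, a class Ib gene of low level with 47 to 667 recovered reads per library, was at 0.819, 1.59 and 4.39 FPKM in saline and at 2.51, 4.49 and 6.43 FPKM in silica. Its highest saline library lay within the silica range and the other 5 lay below it. The log2 change came to 1.04 with SE 0.323 (adjusted p = 0.0364).

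These were 2 of the 27 genes, or 7.41%, beside 13.8% of all genes tested at day 28. No member had groups that did not overlap, beside 2.92% of all genes. Psmb8 did not pass the test, at 27.7, 38.7 and 79.1 FPKM in saline and at 20.1, 27.4 and 53.3 FPKM in silica, with log2 change -0.43 and SE 0.256 (adjusted p = 0.266). RT1-CE4 had log2 change -0.44 and SE 0.157 (adjusted p = 0.0601), RT1-CE5 of -0.78 (SE 0.343, adjusted p = 0.126) and Tapbp of 0.33 (SE 0.143, adjusted p = 0.114). The median over the 27 genes was -0.02, with 13 above 0, beside -0.0292 over all genes.

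Both day 28 calls were made against the saline group that holds the 3 libraries with the most mitochondrial reads. Without saline day 28 replicates 1, 2 and 6 the log2 change was -1.11 for RT1-N2 (adjusted p = 0.274) and 0.82 for RT1-M2 (adjusted p = 0.417), and 0 of the 27 genes and 0.288% of all genes were called. Over all 33 alternatives the adjusted p ran from 0.00931 to 0.338 for RT1-N2 and from 0.0088 to 0.421 for RT1-M2. The RT1-N2 call was also lost without saline day 28 replicate 1 or 2 or silica day 28 replicate 1, 3 or 4 alone, at -1.31 to -0.97 over the single omissions. RT1-M2 was not called without saline day 28 replicate 1, 2, 3 or 6 or silica day 28 replicate 1, 3, 4 or 5 alone, at 0.93 to 1.24.

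**Figure D2:**
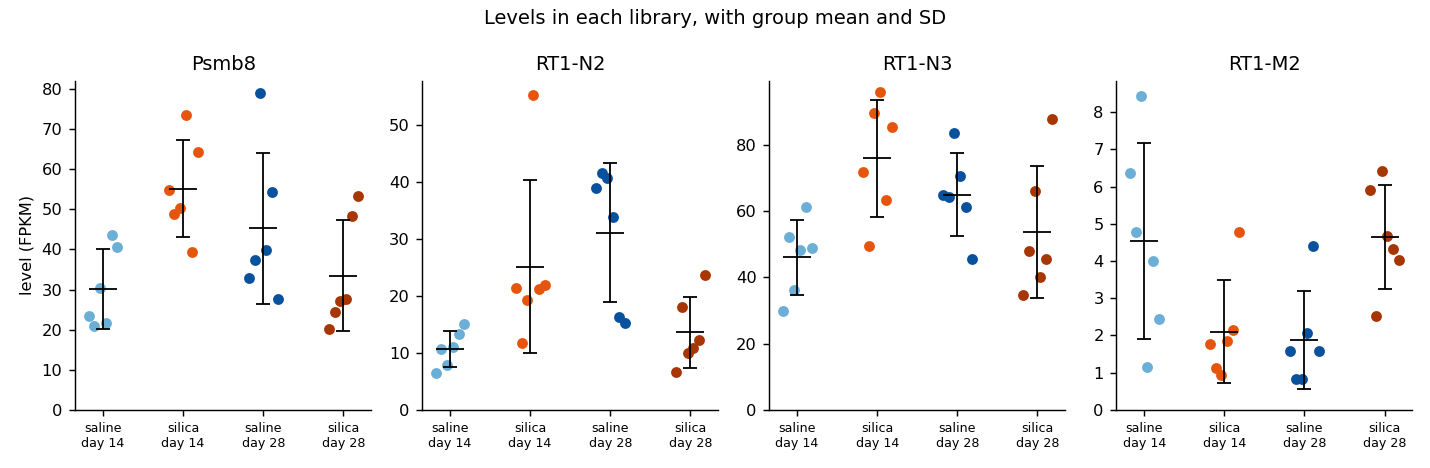
Level in FPKM of Psmb8, RT1-N2, RT1-N3 and RT1-M2 in each of the 4 groups, with 1 point per library and the group mean with its SD (n = 6). Psmb8, RT1-N2 and RT1-N3 have the higher silica median at day 14 and the lower at day 28, and RT1-M2 has the reverse order.

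The silica effect differed between the days in 4 of the 27 genes, or 14.8%, beside 9.93% of all genes tested. Psmb8 (difference of the log2 changes, day 28 minus day 14, -1.31, SE 0.362, adjusted p = 0.0287), RT1-N2 (-2.18, SE 0.461, adjusted p = 0.0115) and RT1-N3 (-1.03, SE 0.295, adjusted p = 0.0326) had a log2 change above 0 at day 14 and below 0 at day 28. RT1-M2 went the other way (1.82, SE 0.456, adjusted p = 0.0201). The day 14 values of RT1-M2 were 1.16, 4.39 and 8.44 FPKM in saline and 0.922, 1.81 and 4.78 FPKM in silica. None of the 4 genes was called at both days, so a reversal of sign was not shown. Psmb8 was called only at day 14, and RT1-N2 and RT1-M2 only at day 28. RT1-N3 was called at neither day, with log2 change -0.32 and SE 0.209 at day 28 (adjusted p = 0.308 by limma). At an adjusted p under 0.01 none of the 4 was called for the difference. With the threshold kept at 0.05 there were 32 alternatives, 24 of them fits without 1 library, which share most of their data. In RT1-N2 and RT1-M2 the call held in 30 of the 32, in Psmb8 in 25 and in RT1-N3 in 23. The exceptions for RT1-N2 and RT1-M2 were the fit with mitochondrial percent as a covariate (adjusted p of 0.0738 and 0.109) and the fit without saline day 28 replicates 1, 2 and 6 (0.0795 and 0.127), at log2 differences of -2.36 to -1.93 and of 1.60 to 2.56 over all alternatives. Under these same 2 fits 0 of the 27 genes were called for the difference. Few of all genes tested were called for it with the covariate (share given below), so the 0 does not set these genes apart. For the fit without the saline libraries the share of all genes is not given here, and that 0 is not read as a result about the 27. Psmb8 lost the call without saline day 14 replicate 1, 2 or 4, silica day 14 replicate 4 or silica day 28 replicate 4, and RT1-N3 without saline day 14 replicate 1 or 3, saline day 28 replicate 1 or 2, silica day 14 replicate 4 or silica day 28 replicate 4.

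**Figure D3:**
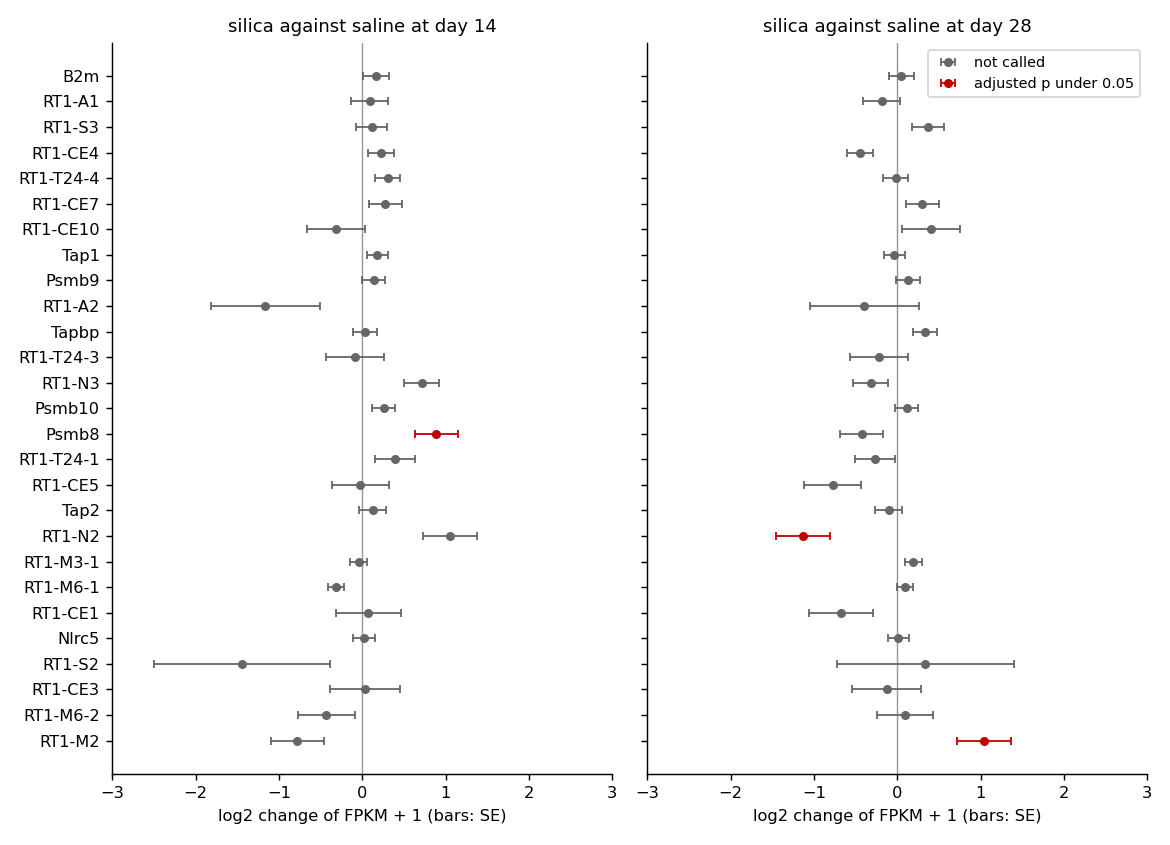
Log2 change of FPKM + 1, silica against saline, for the 27 genes at day 14 and at day 28, with bars for the SE of the fit and red for genes called at an adjusted p under 0.05. Psmb8 is red at day 14, RT1-N2 and RT1-M2 are red at day 28, and RT1-A2 and RT1-S2 have the widest bars at both days.

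Within saline, RT1-N2 was higher and RT1-M2 lower at day 28 than at day 14. The RT1-N2 values of the day 28 group (15.3 to 41.5 FPKM) lay above all those of the day 14 group (6.51 to 15.0 FPKM), with log2 change 1.39 and SE 0.326 (adjusted p = 0.0049). It was the only one of the 27 whose saline groups did not overlap, beside 8.46% of all genes. RT1-M2 had log2 change -0.89 and SE 0.323 (adjusted p = 0.0456). These 2 genes were 7.41% of the 27, beside 25.2% of all genes tested. Neither was called without saline day 28 replicates 1, 2 and 6, at 1.37 (adjusted p = 0.0734) for RT1-N2 and -0.67 (adjusted p = 0.353) for RT1-M2. Over all 33 alternatives the adjusted p ran from 0.00182 to 0.128 for RT1-N2, which kept the call in 31, and from 0.0122 to 0.353 for RT1-M2, which kept it in 13. RT1-M2 was not called without saline day 14 replicate 1, 2, 3 or 5, saline day 28 replicate 1, 2, 3, 4 or 6, silica day 14 replicate 1 or 5 or silica day 28 replicate 4, 5 or 6. RT1-CE5 (log2 change 0.91, SE 0.343, adjusted p = 0.0539) missed the threshold, and in the fit of only the 2 saline groups it was called (adjusted p = 0.0413) while RT1-M2 was not (adjusted p = 0.0887).

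Within silica, limma called 0 of the 27 genes between the days, beside 0.00479% of all genes tested. At an unadjusted p under 0.05 there were 6 of the 27, beside 8.81% of all genes, and limma-voom on recovered reads also called 0 of the 27. None had groups that did not overlap, beside 0.686% of all genes. The lowest unadjusted p was that of Psmb8, whose log2 change was -0.77 (SE 0.256, adjusted p = 0.422).

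Cell type markers also differed between the saline groups, and their part in the class I values was not tested. The summed level of 5 fibroblast markers was 1420 to 1950 FPKM in saline at day 14 and 550 to 851 in saline at day 28, and that of 6 endothelial markers was 595 to 733 and 349 to 526 FPKM. Markers of ciliated cells had the opposite direction within saline, with 4 of 4 called higher at day 28, beside 25.2% of all genes. At day 28, 3 of 4 were called lower in silica than in saline, beside 13.8%. Without saline day 28 replicates 1, 2 and 6, 0 of these 4 markers were called in either comparison. RT1-N2 had the direction of these markers in both comparisons. In silica against saline at day 14 the 4 markers were below 0 (median log2 change -0.585) and RT1-N2 was at 1.05. Within silica the 4 markers were above 0 at day 28 (median 0.43) and RT1-N2 was at -0.79. At day 14 and within silica neither RT1-N2 nor any of the 4 markers was called. A link between RT1-N2 and these markers was not tested. The summed level of the ciliated markers was at most 37.9 FPKM (median 23.9) in the day 14 saline libraries and 10.7 to 22.1 in the day 14 silica libraries. It was 21.7 to 90.4 in the day 28 saline libraries and 14.8 to 36.6 in the day 28 silica libraries. In the silica groups the fibroblast sum was 1110 to 1750 FPKM at day 14 and 939 to 1300 at day 28. Of the lists of cells rich in class I molecules, 0 of 7 T cell and 0 of 7 natural killer cell markers were called at either day. The shares of all genes were 4.37% at day 14 and 13.8% at day 28. Most of these markers lay above 0 all the same. At day 14 it was 7 of 7 in each list, with median log2 changes of 0.204 (T cell) and 0.198 (natural killer cell). At day 28 it was 6 of 7 in each, with medians of 0.22 and 0.264. The medians over all genes were -0.0023 at day 14 and -0.0292 at day 28. Of 8 macrophage markers 1, Csf1r, was called at day 28 (0.56, SE 0.187, adjusted p = 0.0495), which is 12.5% beside 13.8% of all genes. No macrophage marker was called at day 28 without saline day 28 replicates 1, 2 and 6. The summed T cell level overlapped between all 4 groups, from 40.4 to 129 FPKM, and no marker of that list was at 0 in a whole group.

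Differences between animals of a group were larger for the heavy chains than for the loading genes. The residual SD of log2(FPKM + 1) within groups had a median of 0.589 over the 19 RT1 genes, 0.248 over the 8 other genes and 0.267 over all 20856 genes. Of the RT1 genes, 10 were among the 10% of all genes with the largest residual SD, and 0 of the 8 others were. The 10 were RT1-S2 (1.96), RT1-A2 (1.21), RT1-CE3 (0.77), RT1-CE1 (0.71), RT1-T24-3 (0.64), RT1-CE10 (0.64), RT1-CE5 (0.63), RT1-M6-2 (0.62), RT1-N2 (0.60) and RT1-M2 (0.59), each as residual SD. The count depended on the scale: with a pseudocount of 0.1 it was 2 of the 27 genes, where the bound of that 10% rose from 0.552 to 1.072, and among genes with a mean FPKM of at least 5 it was 8 of 25. Tap1 varied least among the 8 loading genes, with a highest library 1.61 times its lowest, and RT1-M6-1 and RT1-M3-1 had ratios of 1.79 each.

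Reads counted for RT1-S2 were many in some animals and nearly absent in others. How reads shared by near-identical RT1 genes were counted is not given, so few reads need not mean that the transcript was absent. RT1-S2 was at 15.7 to 57.7 FPKM in 5 libraries and at 0.528 FPKM or less in the other 19, of which 3 were at 0. The 5 were saline day 14 replicates 3 (16.2 FPKM) and 5 (57.7 FPKM), saline day 28 replicate 3 (38.4 FPKM) and silica day 28 replicates 2 (15.7 FPKM) and 3 (16.2 FPKM). They held 467 to 1831 recovered reads and the other 19 held at most 15, with no library in between. Its relative RT1-S3 was at 136 FPKM or more in all 24 libraries, and the deviations of these genes from their group means had r = 0.21 (24 libraries). At day 14 the log2 change of RT1-S2 was -1.44 (SE 1.06, adjusted p = 0.478). The authors' deposited table lists RT1-S2 at day 14 with a log2 fold change of -5.93 and an FDR of 0.00499. That difference rests on 2 of the 6 saline libraries, the other 4 being at 0.0633 FPKM or less against 0.0634 to 0.337 FPKM in silica.

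The classical gene RT1-A2 ranged from 10.8 to 236 FPKM, a ratio of 21.9 between the highest and the lowest library, with at least 490 recovered reads in each. Its lowest, median and highest values were 25.3, 76.5 and 153 FPKM in saline at day 14, 10.8, 40.4 and 68.1 in the silica group of that day, 15.0, 75.4 and 236 in the day 28 saline group and 16.2, 46.7 and 228.5 in the day 28 silica group. All groups overlapped, and the log2 change came to -1.16 with SE 0.653 (adjusted p = 0.326) at day 14 and -0.39 (SE 0.653, adjusted p = 0.717) at day 28. RT1-A1 ranged only from 185 to 540 FPKM, a ratio of 2.91, with log2 changes of 0.09 (SE 0.225, adjusted p = 0.875) and -0.19 (SE 0.225, adjusted p = 0.605). The level of RT1-A2 relative to RT1-A1 ran from 0.0245 to 0.564 over the 24 libraries. In the RefSeq genome the 61 bases that end with the kappa-B type motif were 90.2% identical between these genes. A link between that sequence and the levels was not tested. RT1-CE3 had a range comparable to that of RT1-A2, from 0.702 to 17.1 FPKM. Whether the RT1 haplotype of the animals accounts for these ranges was not tested.

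**Figure D4:**
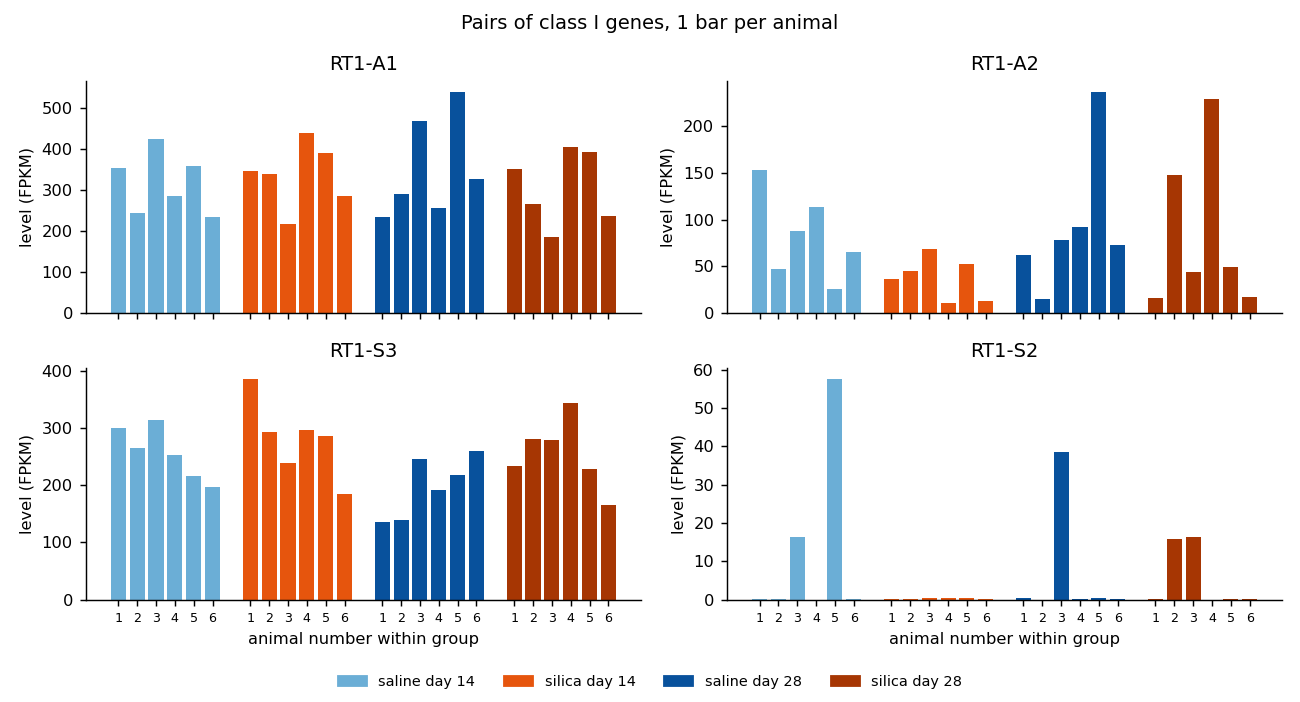
Level in FPKM of RT1-A1, RT1-A2, RT1-S3 and RT1-S2, with 1 bar per animal and colours for the 4 groups. RT1-S2 is visible in 5 of the 24 animals, spread over 3 groups, and RT1-A2 varies from 10.8 to 236 FPKM while RT1-A1 stays between 185 and 540.

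Across the 24 libraries the loading genes varied together more than the heavy chains did. As Pearson's r of deviations from the group means, the 28 pairs of the 8 other genes had a median of 0.45, the 171 pairs of RT1 genes 0.10 and the 152 mixed pairs 0.20. B2m went with Psmb9 (r = 0.91) and Psmb10 (r = 0.87), and Psmb9 with Psmb10 (r = 0.83). These 3 genes lie on 3 chromosomes, B2m on 3, Psmb10 on 19 and Psmb9 on 20. The libraries share depth and sample makeup between all genes, and these values are a description.

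Chromosome 20 holds 26 of the 29 genes in GRCr8, and neighbours there had high as well as low values. Tap2, Psmb8, Tap1 and Psmb9 follow each other in that order among the 26, and Psmb8 had r = -0.41 with Tap2, 0.10 with Tap1 and 0.30 with Psmb9. Psmb8 had its highest r with RT1-N3 (0.59) among the 26 other genes tested. RT1-N2 and RT1-N3, with RT1-S2 between them in that order, had r = 0.73. RT1-A1 and RT1-A2, also adjacent in that order, had r = 0.20, while RT1-A1 and RT1-CE10 had r = 0.74. RT1-N3 and RT1-CE3 had the lowest value of all pairs, r = -0.70.

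The percent of mitochondrial reads went with some of the shared variation. The r of each gene's deviation with that of the log2 mitochondrial percent was -0.67 for Tapbp, -0.62 for B2m, -0.60 for RT1-T24-4 and -0.58 for Psmb10, and 0.01 for RT1-M2 and -0.06 for RT1-N2. B2m was at 2249, 2182 and 2296 FPKM in saline day 28 replicates 1, 2 and 6, below all 6 libraries of saline at day 14 (2837 FPKM or more). With mitochondrial percent as a covariate 0 of the 27 genes were called in any of the 5 contrasts, beside 6.92% of all genes at day 14, 0.125% at day 28 and 0.0671% for the difference. For the genes called at each day the log2 changes stayed close to those without the covariate, while the SE rose at day 28: Psmb8 at day 14 was at 0.82 (adjusted p = 0.0504), RT1-N2 at day 28 at -1.25 (SE 0.437) and RT1-M2 at day 28 at 0.96 (SE 0.433).

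**Figure D5:**
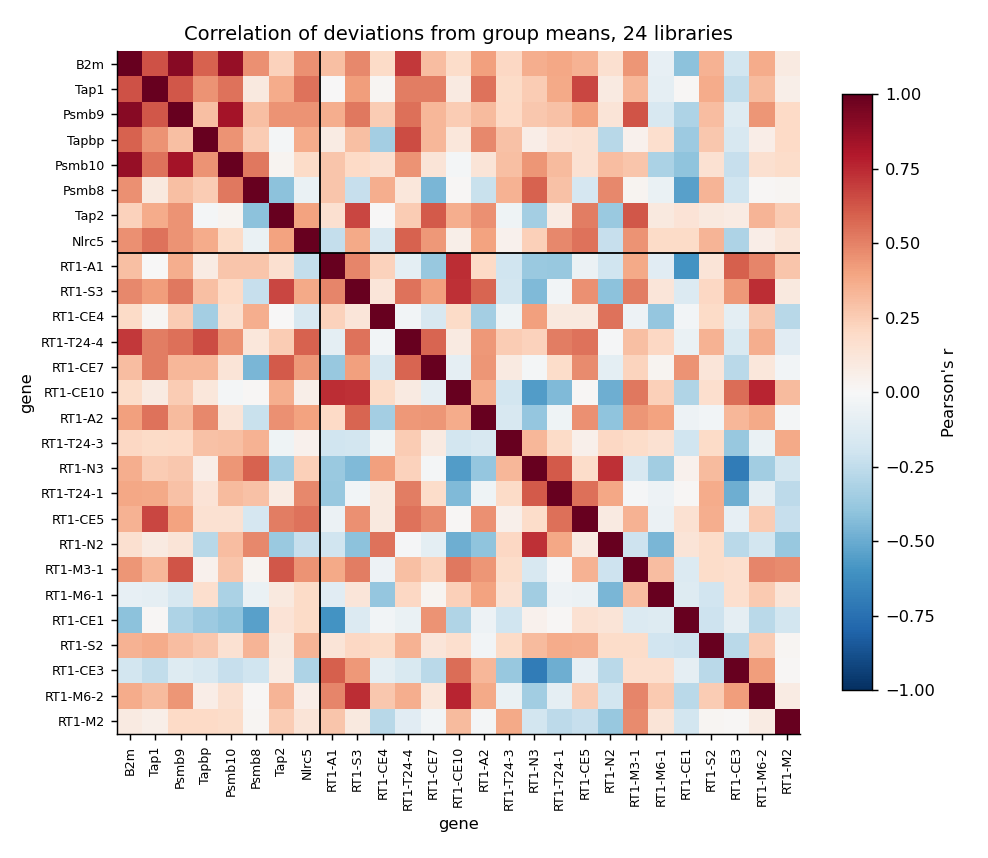
Pearson's r between the deviations of 27 genes from their group means over 24 libraries, with the 8 loading genes before the black lines and the 19 RT1 genes after them. The upper left block is mostly red, with B2m, Psmb9 and Psmb10 at 0.83 to 0.91, and the RT1 block holds both colours, from -0.70 to 0.76.

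Other genes of class I assembly, which are chaperones of the endoplasmic reticulum and a peptide-trimming enzyme, were called more often at day 28, a difference from the 27 that was not tested. Of 7 listed, 3 rose and 0 fell at day 28 (42.9%), 0 rose and 1 fell at day 14, and the silica effect differed between the days in 4 (57.1%). The shares of all genes were 13.8% at day 28, 4.37% at day 14 and 9.93% for the difference. Between the days, 4 of the 7 fell within saline (57.1%, beside 25.2% of all genes) and 0 were called within silica. Hspa5, a chaperone that binds newly made heavy chains, was at 188, 238 and 326 FPKM in saline at day 28 and at 286, 342 and 587 in silica, and rose by 0.61 log2 units with SE 0.168 (adjusted p = 0.0233). Erap1, the aminopeptidase that trims peptides for class I, rose by 0.36 (SE 0.107, adjusted p = 0.0315), and Calr, a chaperone of the loading complex, rose by 0.41 (SE 0.134, adjusted p = 0.0455). For Hspa5, Erap1 and Calr the day 28 saline group had the lowest group median (238, 16.5 and 181 FPKM). The medians of the day 28 silica group were 342, 19.8 and 244 FPKM. At day 14 they were 360, 24.2 and 237 FPKM with saline and 264, 21 and 186 FPKM with silica. Canx, which holds the free heavy chain, fell by 0.34 at day 14 (SE 0.0982, adjusted p = 0.0466). Without saline day 28 replicates 1, 2 and 6 none of the 7 was called at day 28, for the difference or within saline. Few of all genes were called at day 28 in that fit either (share given above), so this loss was not particular to the 7. Canx was still called at day 14 in that fit.

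Of 13 transcriptional regulators of class I, 1 rose at day 14 (7.69%, beside 4.37% of all genes) and 2 rose at day 28 (15.4%, beside 13.8%), so that both shares were near the background. Rfxap, a subunit of the RFX complex that binds MHC promoters, was at 5.45, 5.92 and 6.34 FPKM in saline at day 14 and at 7.44, 8.79 and 10.9 in silica. The groups did not overlap, and Rfxap rose by 0.52 log2 units with SE 0.0852 (adjusted p = 0.000645). At day 28 Rfxap was at 7.28 to 9.59 FPKM in saline and at 7.19 to 9.34 in silica, so that the saline day 14 group was the low one. Irf9, the DNA-binding subunit of the factor through which type I interferon acts, was at 0.215, 3.47 and 11.7 FPKM in saline at day 28 and at 9.41, 18.8 and 25.0 in silica, with log2 change 2.29 and SE 0.442 (adjusted p = 0.00532). In saline at day 14 Irf9 was at 13.0 to 21.3 FPKM, so that the saline day 28 group was the low one. Irf9 was still called at day 28 without saline day 28 replicates 1, 2 and 6, and Nfkb1 (0.53, SE 0.128, adjusted p = 0.0142) was not. Irf1, a factor that carries the interferon gamma signal to class I genes and was named after its values had been seen, had log2 changes of 0.06 (adjusted p = 0.802) at day 14 and 0.08 (adjusted p = 0.656) at day 28.

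Few genes of the remaining lists were called. Of 22 genes of interferon gamma and type I interferon signalling, 0 were called at day 14 and 1 at day 28, the receptor gene Ifngr1, which fell by 0.29 (SE 0.0882, adjusted p = 0.0338). This was 4.55% of the list at day 28, beside 13.8% of all genes, and the 0 at day 14 stood beside 4.37%. Of the 22 genes, 15 lay above 0 at day 14 (median log2 change 0.147) and 20 at day 28 (median 0.153). The medians over all genes were -0.0023 and -0.0292. Ifng itself, also named after its values had been seen, had log2 change 0.16 and SE 0.155 (adjusted p = 0.613) at day 14 and of 0.09 (SE 0.155, adjusted p = 0.727) at day 28. Of 11 MHC class II genes and of 3 genes of the proteasome activator PA28, 0 were called at either day, beside 4.37% of all genes at day 14 and 13.8% at day 28. Of the constitutive proteasome subunits that Psmb8, Psmb9 and Psmb10 replace, Psmb7 rose at day 28 (0.37, SE 0.0996, adjusted p = 0.0215) and Psmb5 and Psmb6 were not called at either day. Neither Ifngr1 nor Psmb7 was called at day 28 without saline day 28 replicates 1, 2 and 6.

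The authors' deposited table holds its own comparisons. It lists an FDR under 0.05 at day 14 for 4 of the 27 genes that have an FDR there, Psmb8, RT1-N2, RT1-N3 and RT1-S2, beside 11.1% of all genes with an FDR. At day 28 the authors' deposited table lists 3 of 28, RT1-CE4, RT1-M2 and RT1-N2, beside 13.3%, and for silica at day 14 over silica at day 28 it lists 0 of 27, beside 0.642%.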

How the data were processed

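Poly-A selected RNA of 24 rat lungs was analysed from 2 tables made by the authors. The authors deposited FPKM values for 32489 gene IDs, and the largest difference between the 2 tables was 0. Per the file headers, the authors' deposited log2 fold changes, linear fold changes (ratios), p-values and FDRs compare 3 pairs of groups; the tool is not given in the sources used here. Per the submitters' processing notes, the tools were HISAT2 2.1.0, HTSeq 0.9.1, cutadapt 4.0 and FastQC 0.11.9, and the builds Rnor_6.0 and rn6. The counting of reads shared by near-identical genes, and whether it used strand, are not given.

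From the FPKM steps whole reads were recovered for 100% of nonzero gene IDs (tolerance 0.02 read) and used for depth, mitochondrial percent and 1 alternative test. The test on log2(FPKM + 1) was limma-trend (limma 3.58.1, R 4.3.3, two-sided) over the 20856 genes with at least 0.5 FPKM in 6 or more libraries, as 1 fit of 4 group means, with Benjamini-Hochberg adjustment over all genes tested and a call under 0.05. Fold changes on this scale understate the change of low genes. The fit was checked on simulated data. The mitochondrial covariate was the percent of summed FPKM. Python 3.11.15 with pandas 2.3.3 was used for the rest. The named genes were the 8 loading genes, RT1 genes with a mean of at least 10 FPKM, every gene called, the 3 with the largest residual SD and up to 4 genes of each list; RT1-M6-2, RT1-M4 and RT1-M5 were named after their values had been seen. The members and lists were chosen with earlier results of these data known.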

Additional observations from a re-analysis of the deposited data

Results flagged for a closer look

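Of 104 checks of a gene in a group of 6, 11 had a library far from the other 5. Chance alone would give this in about 5% of checks if values were independent and normally spread. That was not checked for these FPKM values, and genes of 1 library are not independent, so no excess over chance is read from the 11. Silica day 14 replicate 4 stood high in 3 genes, with Psmb9 at 118 FPKM (next library 80.4), Psmb10 at 84.3 (next 56.0) and RT1-N2 at 55.3 (next 21.9). Saline day 28 replicate 5 stood high in RT1-A2 at 236 FPKM (next 91.5) and in RT1-M2 at 4.39 (next 2.06). RT1-S2 was at 57.7 FPKM in saline day 14 replicate 5 (next 16.2) and at 38.4 in saline day 28 replicate 3 (next 0.528). RT1-CE3 was at 17.1 FPKM in saline day 14 replicate 1 (next 5.68), RT1-CE1 at 27.1 in silica day 14 replicate 5 (next 13.3) and RT1-M2 at 4.78 in silica day 14 replicate 6 (next 2.13). RT1-T24-3 stood low, at 21.1 FPKM in saline day 14 replicate 4 (next 63.8).

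The silica effect differed between day 28 and day 14 by limma in Psmb8 (log2 difference -1.31, SE 0.362, adjusted p = 0.0287), RT1-N3 (-1.03, SE 0.295, adjusted p = 0.0326), RT1-N2 (-2.18, SE 0.461, adjusted p = 0.0115) and RT1-M2 (1.82, SE 0.456, adjusted p = 0.0201).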

How the results depend on the processing

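The calls are few and most sit near the threshold, depth is not the limit for the abundant genes, and the low genes RT1-M2, RT1-M6-2, RT1-CE3 and RT1-S2 rest on as few as 47, 46, 25 and 0 reads in a library. As members called at day 14, at day 28, for the difference, within silica and within saline, the reported counts are 1, 2, 4, 0 and 2. They were 1, 2, 4, 0 and 2 with a pseudocount of 0.1, 1, 2, 5, 0 and 2 with upper quartile scaling, 0, 1, 3, 0 and 1 with no filter on low values, 3, 2, 5, 0 and 2 with a filter of 1 FPKM in 6 or more libraries, 3, 1, 5, 0 and 1 with limma-voom on recovered reads, 0, 0, 0, 0 and 0 with mitochondrial percent as a covariate, 2, 0, 0, 0 and 0 without saline day 28 replicates 1, 2 and 6, and 0, 0, 0, 0 and 1 at an adjusted p under 0.01. In fits of only the groups compared they were 1, 0, 0 and 2, without the difference. Leaving out each library in turn gave 0 to 3 at day 14, 0 to 4 at day 28, 2 to 6 for the difference, 0 to 0 within silica and 1 to 3 within saline. The share of all genes called also moved with the setting, as given above for the covariate and without saline day 28 replicates 1, 2 and 6. Moves of these counts are therefore not read as particular to the class I genes. The count of members with a spread among the largest 10% moved from 10 to 2 with a pseudocount of 0.1 and to 8 with a mean FPKM of at least 5. The causes of the other moves were not tested. For log2 changes of single genes, 1222 of the values under the other alternatives kept their side of the threshold, 37 lost a call and 10 gained it, and of the values with 1 library left out 3032 kept it, 54 lost a call and 34 gained it; none changed the sign of a call.

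Replicate numbers were shared by all groups, but over 36 same-number pairs of libraries the deviations correlated at a mean of -0.023 (lowest -0.296, highest 0.127), so same-numbered animals were treated as unpaired. A fit with the replicate number as a block called 0 at day 14, 1 at day 28, 4 for the difference, 0 within silica and 2 within saline, where the called genes were RT1-N2 and RT1-CE5 (adjusted p = 0.0423) and RT1-M2 was lost (adjusted p = 0.061).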
